A study of Homo sapiens with 2 samples.

Results

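Centromere and kinetochore genes were compared between 2 RNA sequencing libraries of U87MG, an established human glioblastoma cell line. The set held 42 genes, all those whose symbol stood on a list of centromere and kinetochore proteins, out of 58735 genes in the deposited table. All 42 were found, and all 42 had a mean of at least 1 FPKM (fragments relative to exon length, here scaled by 1 factor common to both libraries) over both libraries. Both cultures had been infected with a lentivirus, either the pGIPZ-CTRL control or a TRIP13-shRNA virus, kept under puromycin selection as stable clones and grown for a week under stem cell culture conditions as glioma spheres. With a single library on either side there is no replicate error, and no test was possible. How many clones each culture held is not given in the sources used here.

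TRIP13, an AAA+ ATPase that remodels the checkpoint protein MAD2, was the gene aimed at. It stood at 23.1 FPKM in the library labelled TRIP13 shRNA and at 11.9 FPKM in the control library (1593 and 819 reads). The ratio of 1.95 (95% counting interval 1.79 to 2.12) goes against the label, so this library is named only by its label here, and every direction is one between libraries as labelled. Reads recovered from the FPKM values came to 19903836 under the TRIP13 shRNA label and 18871063 in the control. This difference in depth of 1.05-fold is thus left in the FPKM values. Of the glioma and neural stem markers looked up, SOX2 had 1 against 2 reads (library labelled TRIP13 shRNA first, as in every pair below), PROM1 1 against 5 and MSI1 0 in both, while vimentin (VIM) stood at 427 against 442 FPKM and CD44 at 112 against 115. NES (nestin) was lower under the TRIP13 shRNA label at 2.21 against 5.23 FPKM (238 and 563 reads), and OLIG2 at 0.339 against 2.72 FPKM (22 and 177 reads). GFAP had 28 against 92 reads and FABP7 16 against 67. Of the 10 markers, 4 reached a mean of 1 FPKM, all 4 had log2 ratios of (FPKM + 1) below 0 with a median of -0.50, and OLIG2 was the 1 at least 2-fold lower on that scale. Their part in the differences below was not tested. Of 7 microglia and macrophage, 5 endothelial and 5 neuron markers, 1, 1 and 3 reached a mean of 1 FPKM. These were CSF1R at 3.31 against 3.75 FPKM and KDR at 2.85 against 4.52. The neuron markers were SNAP25 at 5.93 against 6.26 FPKM, GAD1 at 1.64 against 1.03 and SYT1 at 0.858 against 1.93.

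The kinetochore is the protein structure that ties each chromosome to spindle microtubules during cell division. It is built on centromeric chromatin marked by the histone variant CENP-A, on which the constitutive centromere-associated network (CCAN) sits. The KNL1, MIS12 and NDC80 complexes form the outer plate that grips microtubules, and the chromosomal passenger complex with the kinase Aurora B corrects faulty attachments. Many of these genes are transcribed mainly in dividing cells late in the cell cycle, and their messages are scarce in resting cells.

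Nearly the whole set was higher under the TRIP13 shRNA label. Of 42 genes, 41 lay above 0 on the log2 scale of (FPKM + 1) ratios (the log2 ratio), and CENPC alone lay below 0. Among all 10671 protein-coding genes with a mean of at least 1 FPKM, 60.2% lay above 0. The median log2 ratio was 0.73 for the set and 0.12 for all tested genes, and 7.1% of all tested genes lay above the median of the set. At least 2-fold higher, by a log2 ratio of 1 or more, were 6 of 42 genes (ZWINT, SPC24, SPC25, SPDL1, CENPU and SKA3), against 2.17% of all tested genes. At least 2-fold lower were 0 of 42, against 4.19% of all tested genes. With each library divided by its own total, 4 genes (ZWINT, SPC24, SPC25 and SPDL1) were at least 2-fold higher, against 1.67% of all tested genes higher and 4.81% lower. Once the median ratio of all genes was set to 1, 2 genes were, ZWINT and SPC24, against 1.30% higher and 5.14% lower. Under both of these scalings, as under rescaling to TPM, 41 of 42 genes were above 0.

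Counting error was small beside most of these differences. The genes were covered by 133 to 4859 reads in the control library and by 251 to 6759 in the library labelled TRIP13 shRNA. With each library divided by its own total, the 95% counting interval of the ratio lay above 1 for 40 of 42 genes and below 1 for 0, and it included 1 for MIS12 and CENPC. The same count over all tested genes was 43.2% above 1 and 34% below 1, so at this depth an interval that excludes 1 is common. The FPKM summed over the 42 genes was 853 against 482, a ratio of 1.77, while that summed over all tested genes had a ratio of 1.10. In bulk RNA, more cells in division and more message per dividing cell cannot be told apart.

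**Figure D1:**
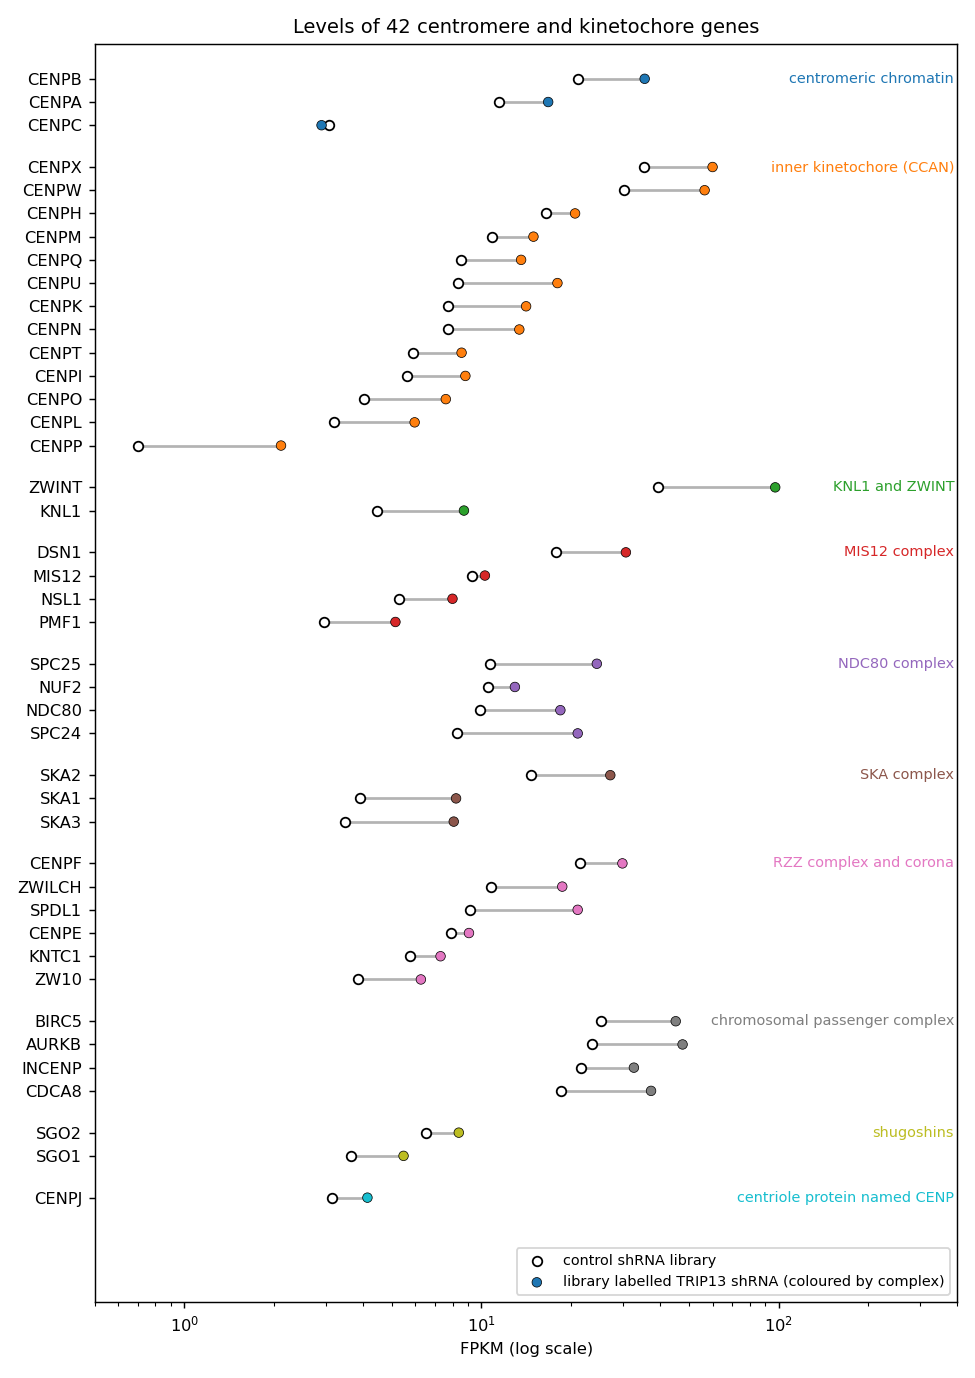
FPKM of each of the 42 genes on a log axis, grouped by complex, with 1 open point for the control library and 1 filled point for the library labelled TRIP13 shRNA. The filled point lies to the right for 41 genes and to the left for CENPC, and levels run from 0.701 FPKM (CENPP, control) to 97.5 FPKM (ZWINT, library labelled TRIP13 shRNA).

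The promoters of the genes at both ends of the set are shown because genes of late cell division are known to carry a CHR element, often with CCAAT boxes upstream of it. RefSeq windows (build GRCh38.p14) from 250 bases before to 50 after the start site were found for 35 of 42 genes, in 42 windows since some genes have several starts. CENPL, KNTC1, CENPJ, CENPM, CENPH, KNL1 and BIRC5 had no entry. The 3 genes with the highest log2 ratio and CENPC follow, all on the minus strand and read 5′ to 3′, with CHR letters (TTTGAA as well as the palindromes TTTAAA and equally TTCGAA) and CCAAT letters, both in either direction, in capitals. For ZWINT the first of 2 overlapping windows is given.
ZWINT (chr10:56361210-56361509): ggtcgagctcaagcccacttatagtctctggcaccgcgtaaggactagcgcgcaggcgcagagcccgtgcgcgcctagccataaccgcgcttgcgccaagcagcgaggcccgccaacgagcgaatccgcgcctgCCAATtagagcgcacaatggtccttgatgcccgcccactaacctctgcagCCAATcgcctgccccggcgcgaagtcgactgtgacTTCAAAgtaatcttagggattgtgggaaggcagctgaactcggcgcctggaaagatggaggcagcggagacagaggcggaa
SPC24 (chr19:11155733-11156032): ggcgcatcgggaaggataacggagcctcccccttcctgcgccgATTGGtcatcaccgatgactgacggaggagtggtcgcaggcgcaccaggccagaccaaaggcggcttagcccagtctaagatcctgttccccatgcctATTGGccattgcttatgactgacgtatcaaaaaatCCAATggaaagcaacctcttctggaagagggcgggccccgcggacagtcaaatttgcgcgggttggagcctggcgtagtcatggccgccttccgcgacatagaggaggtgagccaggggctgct
SPC25 (chr2:168890381-168890680): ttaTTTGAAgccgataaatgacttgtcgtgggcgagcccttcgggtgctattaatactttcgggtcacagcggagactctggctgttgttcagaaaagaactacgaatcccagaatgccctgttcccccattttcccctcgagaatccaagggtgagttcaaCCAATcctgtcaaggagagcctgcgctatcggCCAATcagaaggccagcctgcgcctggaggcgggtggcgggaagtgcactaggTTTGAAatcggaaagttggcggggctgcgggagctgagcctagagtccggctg
CENPC (chr4:67545454-67545753): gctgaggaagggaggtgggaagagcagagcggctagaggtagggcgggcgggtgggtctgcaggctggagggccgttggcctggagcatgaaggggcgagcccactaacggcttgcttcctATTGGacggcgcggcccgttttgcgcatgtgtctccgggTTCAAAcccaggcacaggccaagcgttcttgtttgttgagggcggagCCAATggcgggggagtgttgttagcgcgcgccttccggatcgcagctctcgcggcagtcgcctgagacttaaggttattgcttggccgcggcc

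The ZWINT window held CCAAT letters 116 and 66 bases and CHR letters 31 bases before the start site. In the SPC25 window CCAAT letters began 88 and 56 bases and CHR letters 247 and 3 bases before the start site. That RefSeq start lies inside the annotated span of SPC25, which begins at 168913371 on the minus strand. SPC24 held CCAAT letters at 3 places and no CHR letters. CENPC, the gene with the lowest ratio, held CCAAT letters 129 and 43 bases and CHR letters 90 bases before its start. So these letters did not separate the highest genes from the lowest one. CHR letters stood in 50% of the 42 windows of the set, in 18.1% of 12569 windows of tested genes and in 25.1% of all 35116 windows. CCAAT letters stood in 66.7% of the windows of the set and in 34.6% of those of tested genes and of all windows. Both together stood in 35.7% of the windows of the set, 7.15% of those of tested genes and 9.7% of all. E2F letters (TTTGGCGC or likewise TTTCCCGC, either direction) stood in 3 windows of the set, which belong to CENPA and MIS12, in 3.54% of those of tested genes and in 2.27% of all. Short motifs follow base composition, and the median GC content was 62%, 65% and 58.7% in the windows of the set, of tested genes and of all. Within the set the log2 ratio differed little with CHR or CCAAT letters, with a median of 0.73 over 19 genes with CHR letters and 0.74 over 16 without, and of 0.75 over 24 genes with CCAAT letters and 0.72 over 11 without. The 2 genes with E2F letters, CENPA and MIS12, had a median of 0.33 against 0.75 over 33 without. A match of letters shows no bound factor.

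At the centromere itself, 2 of the 3 genes were higher, and the call for the third hung on the scaling. CENPB, which binds a short DNA motif in centromeric satellite repeats, had 35.4 against 21.1 FPKM and a ratio of 1.68 (1.56 to 1.81). CENPA, the histone variant that marks the centromere, had 16.8 against 11.4 FPKM and a ratio of 1.47 (1.30 to 1.66), and 6.96% of its exon length is shared with SLC35F6 on the same strand. CENPC, the scaffold that links CENP-A nucleosomes to the outer kinetochore, stood at 2.9 against 3.08 FPKM (484 and 514 reads). The ratio, 0.942 (0.830 to 1.07), could not be distinguished from 1 as deposited or with own totals. The median ratio of all tested genes, 1.10, lay above this interval, so with that median set to 1 the interval lay below 1. No direction is read for CENPC, and 34.4% of all tested genes had a lower log2 ratio. CENPC (ENSG00000145241) lies on chromosome 4, 67468748 to 67545606, minus strand. Its processed pseudogene CENPCP1 held 0 against 2 reads.

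The 13 genes grouped here under the CCAN were all above 0, with a median log2 ratio of 0.73 and a range from 0.31 to 1.03. This group leaves out CENPC, which is also counted to the CCAN and had a log2 ratio of -0.07. The further CCAN subunits looked up below are left out too. CENPU, of the group of subunits around CENP-O and CENP-P, stood at 18.03 against 8.35 FPKM. Its ratio of 2.16 (1.94 to 2.41) made it the 1 CCAN gene past the 2-fold rule, but 11.7% of its exon length is shared, mostly with PRIMPOL on the opposite strand. CENPP stood at 2.12 against 0.701 FPKM, the lowest levels of the set, and had the highest FPKM ratio of all 42 genes, 3.02 (2.48 to 3.71), from 402 and 133 reads. Its log2 ratio was only 0.87 because 1 FPKM was added before the ratio was taken, and other genes, mostly IPPK on the opposite strand, cover 42.7% of its exons. Since the strand setting of the counting is not given, the value of CENPP is uncertain.

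CENPX and CENPW, which encode histone-fold subunits, were the most abundant CCAN messages. CENPX stood at 60 against 35.3 FPKM and CENPW at 56.4 against 30.1 FPKM, with ratios of 1.70 (1.57 to 1.83) and 1.87 (1.67 to 2.10). CENPT, the histone-fold partner of CENPW, which recruits the NDC80 complex, was far lower at 8.58 against 5.91 FPKM, and its ratio of 1.45 (1.31 to 1.61) lay below the interval of CENPW. CENPK, CENPH and CENPI belong to the same subcomplex of the CCAN together with CENPM. Their ratios were not alike. CENPK had 14.1 against 7.73 FPKM and a ratio of 1.83 (1.66 to 2.02), CENPI 8.84 against 5.64 FPKM and 1.57 (1.39 to 1.76), CENPM 15.0 against 10.8 FPKM and 1.38 (1.21 to 1.58), and CENPH 20.7 against 16.5 FPKM and 1.25 (1.13 to 1.38). Thus CENPK and CENPH, whose proteins bind each other, had counting intervals that did not overlap.

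CENPN and CENPL, which pair with each other and, for CENPN, read the CENP-A nucleosome, stood at 13.4 against 7.69 FPKM and at 5.96 against 3.2 FPKM. The 2 ratios, 1.74 (1.57 to 1.94) and 1.86 (1.62 to 2.15), overlapped in their intervals. CENPO had 7.59 against 4.04 FPKM, a ratio of 1.88 (1.67 to 2.12), and CENPQ 13.6 against 8.55 FPKM, a ratio of 1.59 (1.37 to 1.85). For CENPO 31.4%, for CENPN 22.8% and for CENPT 19.6% of the exon length overlaps other genes, mostly on the opposite strand. The spread of levels within the CCAN, highest over lowest FPKM, was 50.4-fold in the control library and 28.3-fold in the other, and CENPX and CENPP were at the ends in both.

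KNL1 and its binding partner ZWINT were far apart in level. ZWINT (ENSG00000122952, chromosome 10, 56357228 to 56361275, minus strand), which helps to recruit the RZZ complex, had 97.5 against 39.4 FPKM, from 4492 and 1818 reads. It was the most abundant message of the set in both libraries, its ratio was 2.47 (2.34 to 2.61), and 99.4% of all tested genes had a lower log2 ratio than its 1.28. None of its exon length is shared with another annotated gene. KNL1, the large scaffold on which checkpoint kinases dock, had 8.74 against 4.47 FPKM, a ratio of 1.96 (1.80 to 2.12). ZWINT was thus 8.83 times as abundant per length as KNL1 in the control library and 11.2 times in the other.

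The NDC80 complex, the main microtubule receptor, was near even in the control library, where its 4 subunits lay within 1.29-fold of each other. In the library labelled TRIP13 shRNA they spread over 1.89-fold. SPC24 (chromosome 19, 11131520 to 11155808, minus strand) had 21.1 against 8.29 FPKM, a ratio of 2.55 (2.28 to 2.84), and SPC25 (chromosome 2, 168834132 to 168913371, minus strand) had 24.5 against 10.7 FPKM, a ratio of 2.29 (2.02 to 2.58). Both encode the inner dimer that attaches to the MIS12 complex and to CENP-T. NDC80, whose head domain binds the microtubule, had 18.4 against 9.88 FPKM, a ratio of 1.87 (1.70 to 2.05). NUF2, its partner in the outer dimer, had 13.0 against 10.5 FPKM and a ratio of 1.24 (1.12 to 1.37), below the intervals of the other 3 subunits. SPC24 went from the lowest of the 4 in the control library to the second highest.

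In the MIS12 complex, which joins the inner to the outer kinetochore, DSN1 had 30.6 against 17.9 FPKM and a ratio of 1.71 (1.58 to 1.86). PMF1 had 5.14 against 2.95 FPKM and a ratio of 1.74 (1.41 to 2.15), and NSL1 8.0 against 5.3 FPKM and 1.51 (1.33 to 1.71). MIS12 itself, at 10.3 against 9.27 FPKM, had a ratio of 1.11 (0.989 to 1.24) that could not be told from 1 at this depth. With the median ratio of all genes set to 1 its log2 ratio was 0.01. The order of the 4 levels was the same in both libraries. PMF1 shares 23.3% of its exon length, mostly with the read-through gene PMF1-BGLAP, which held 0 against 1 read.

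All 3 genes of the SKA complex, which helps kinetochores follow shrinking microtubule ends, had ratios near 2. SKA3 had 8.07 against 3.47 FPKM, a ratio of 2.33 (1.97 to 2.75), SKA1 had 8.22 against 3.92 FPKM, a ratio of 2.10 (1.79 to 2.47), and SKA2 had 27.2 against 14.7 FPKM, a ratio of 1.85 (1.70 to 2.01). The 3 counting intervals overlapped. With 1 FPKM added, SKA3 lay just inside the 2-fold rule at a log2 ratio of 1.02 and SKA1 outside it at 0.91.

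The proteins of the corona, the outermost layer that forms before attachment, had ratios from 1.15 to 2.29. SPDL1 (chromosome 5, 169583634 to 169604778, plus strand), the adaptor that brings dynein to the kinetochore, had 21.1 against 9.19 FPKM and a ratio of 2.29 (2.12 to 2.49). ZWILCH and ZW10 of the RZZ complex had 18.7 against 10.8 and 6.26 against 3.85 FPKM, ratios of 1.74 (1.61 to 1.88) and 1.63 (1.37 to 1.93). The third RZZ subunit, KNTC1 (Rod), had 7.29 against 5.75 FPKM, and its ratio of 1.27 (1.18 to 1.37) lay below the intervals of the other two. CENPF, a long coiled-coil protein, stood at 29.8 against 21.4 FPKM with the most reads of the set, 6759 and 4859, and a ratio of 1.39 (1.34 to 1.44). CENPE, the kinesin that carries chromosomes toward the spindle equator, had 9.09 against 7.89 FPKM and a ratio of 1.15 (1.07 to 1.24). Its interval included 1 once the median ratio of all genes was set to 1, so no direction is read for it.

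Ratios in the chromosomal passenger complex lay within a narrower band than in the corona. AURKB, the kinase Aurora B, had 47.5 against 23.5 FPKM, a ratio of 2.02 (1.88 to 2.18), and CDCA8 (Borealin) had 37.2 against 18.6 FPKM, a ratio of 2.01 (1.85 to 2.18). These 2 lay just outside the 2-fold rule, with log2 ratios of 0.99 and 0.97. BIRC5 (Survivin), which brings the complex to phosphorylated histone, had 45.1 against 25.3 FPKM, a ratio of 1.78 (1.68 to 1.89). INCENP, the scaffold that activates the kinase, had 32.6 against 21.6 FPKM and a ratio of 1.51 (1.42 to 1.60), below the intervals of the other 3. The shugoshins, which protect centromeric cohesin, had smaller ratios, 1.498 (1.28 to 1.75) for SGO1 at 5.47 against 3.65 FPKM and 1.29 (1.17 to 1.42) for SGO2 at 8.4 against 6.49 FPKM. For SGO1 17.7% of the exon length is shared, mostly with SGO1-AS1, which held 2 against 12 reads. CENPJ, despite its name a protein of centriole assembly, had 4.14 against 3.15 FPKM and a ratio of 1.31 (1.14 to 1.51).

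**Figure D2:**
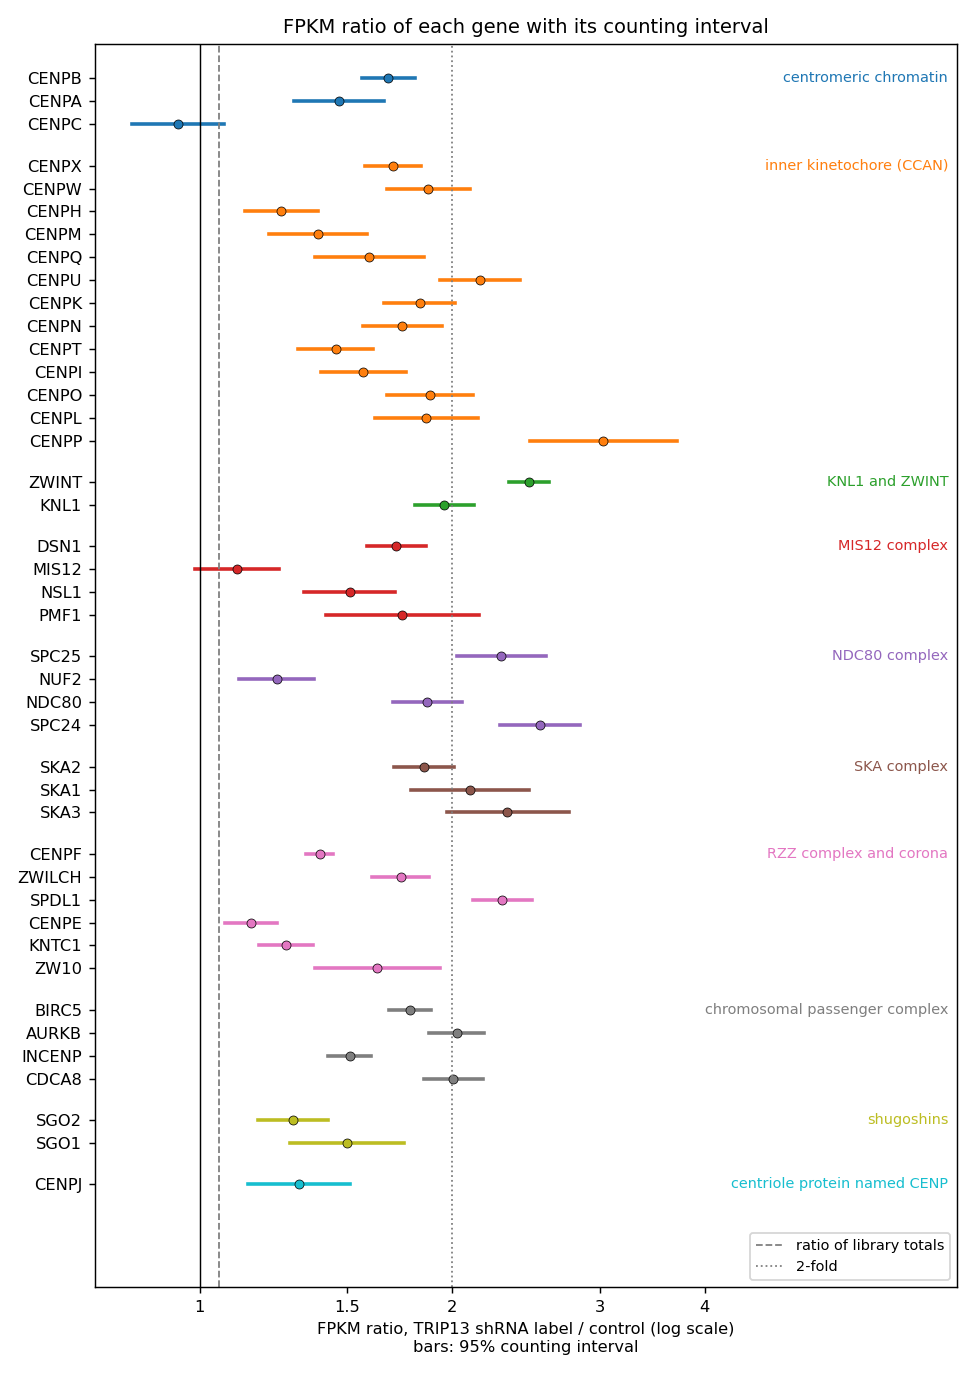
FPKM ratio of each gene (library labelled TRIP13 shRNA over control, log axis) with its 95% counting interval as a bar; the dashed line is the ratio of library totals, 1.05, and the dotted line is 2-fold. The bars of CENPC and MIS12 cross the dashed line. NUF2, MIS12 and INCENP lie to the left of the other subunits of their complexes, and KNTC1 to the left of ZWILCH and ZW10. CENPE has the lowest ratio of the corona group.

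Gene length moved with the ratio to some extent. Across the 42 genes, Spearman's rho between merged exon length and FPKM ratio was -0.25, and across 10668 tested genes with reads in both libraries it was -0.13, as descriptions across genes that share both libraries. The 6 members longer than 8 kb (CENPC, CENPE, CENPF, CENPP, KNL1 and KNTC1) had a median log2 ratio of 0.38 and the 36 others 0.74. For all tested genes the medians were 0.03 above that length and 0.15 at or below it. The median length was 3465 bases for the set and 5122.5 for those 10668 genes. Mean FPKM also moved with the ratio, with rho of 0.19 for the set and 0.18 for all. At a mean FPKM of 5 or more, the median log2 ratio was 0.74 for the set (36 genes) and 0.19 for all. The part of length or level in the differences between subunits, or between the set and all genes, was not tested. Of the 42 genes, 15 share some exon length with another gene and 8 share over 10%, and without these 8 the median log2 ratio of the set was 0.72.

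**Figure D3:**
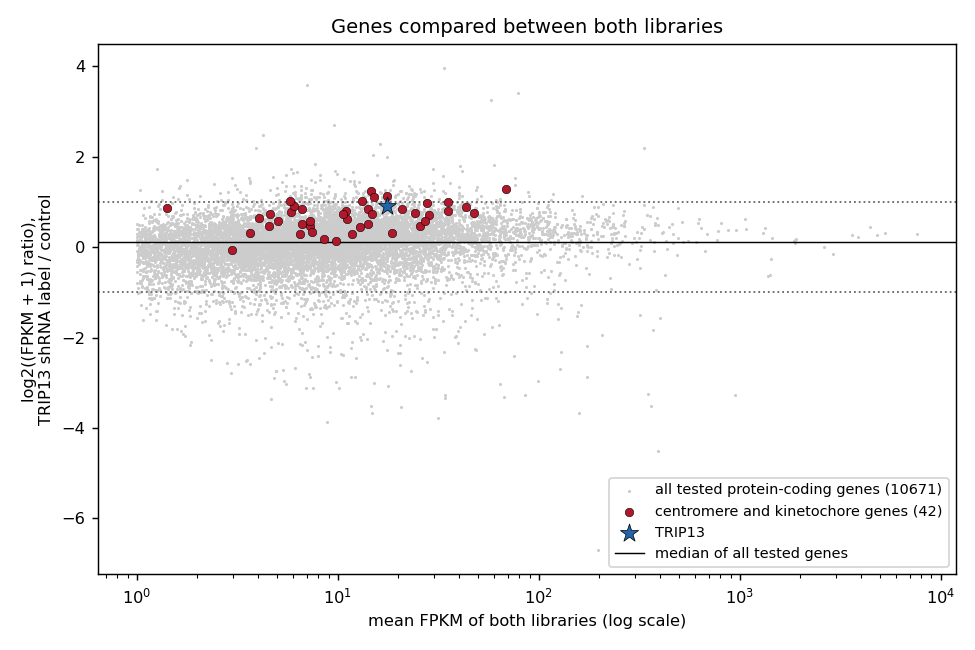
Log2 ratio against mean FPKM (log axis) for 10671 tested protein-coding genes in grey, the 42 genes in red and TRIP13 as a star; dotted lines mark the 2-fold rule and the solid line the median of all tested genes, 0.12. The 42 genes sit between -0.07 and 1.28, and TRIP13, at 0.90, lies among them with 9 above it and 33 below.

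Other genes that act at the centromere and kinetochore were looked up from lists. Of 6 genes for CENP-A loading and further CCAN subunits, all 6 were above 0, with a median log2 ratio of 0.42, and 1 was at least 2-fold higher. That was OIP5, a subunit of the Mis18 complex that prepares centromeres for new CENP-A, at 10.4 against 4.43 FPKM. HJURP, the chaperone that deposits CENP-A, had 37.5 against 24.4 FPKM, and its ratio of 1.53 (1.45 to 1.63) overlapped that of CENPA in its interval. MIS18A, a further subunit of the Mis18 complex, had a ratio of 1.09 (0.971 to 1.22) that was not distinguishable from 1. CENPS, the histone-fold partner of CENPX, had 76 against 30 reads, a ratio of 2.53 (1.64 to 4.005).

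Of 22 genes of the spindle checkpoint and of kinetochore-microtubule attachment, 20 were above 0, with a median of 0.45, and KIF18B, a kinesin that acts on microtubule ends, was the 1 at least 2-fold higher, at 30.6 against 12.9 FPKM. PLK1, a mitotic kinase active at kinetochores, had 43.8 against 21.7 FPKM. The dynein heavy chain DYNC1H1, which SPDL1 links to the kinetochore but which also serves transport in resting cells, went the other way at 32.3 against 51.6 FPKM, a ratio of 0.625 (0.615 to 0.636). NDEL1, a dynein regulator, had 8.86 against 11.2 FPKM. Cohesin and separase genes had a median of 0.20 over 11 genes with 7 above 0, near the median of 0.12 and the 60.2% above 0 of all tested genes. CDCA5 (Sororin), which holds sister chromatids together until division, was at least 2-fold higher there at 33.2 against 13 FPKM, while the cohesin subunit STAG2 had 12.4 against 15.0 FPKM.

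The difference was not limited to kinetochore genes. Other mitosis genes had a median log2 ratio of 0.92 over 19 of 20 listed genes, with 5 at least 2-fold higher, and DNA replication genes 1.04 over 20 with 12 at least 2-fold higher, both above the 0.73 of the set. MKI67, the proliferation marker Ki-67, stood at 53.3 against 27.4 FPKM. RRM2, a ribonucleotide reductase subunit, had the highest log2 ratio of the replication list, 1.73. Housekeeping genes had a median of 0.32 over 12 genes with 0 at least 2-fold higher. The part of cell cycle genes at large in the difference of the kinetochore set was not tested.

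**Figure D4:**
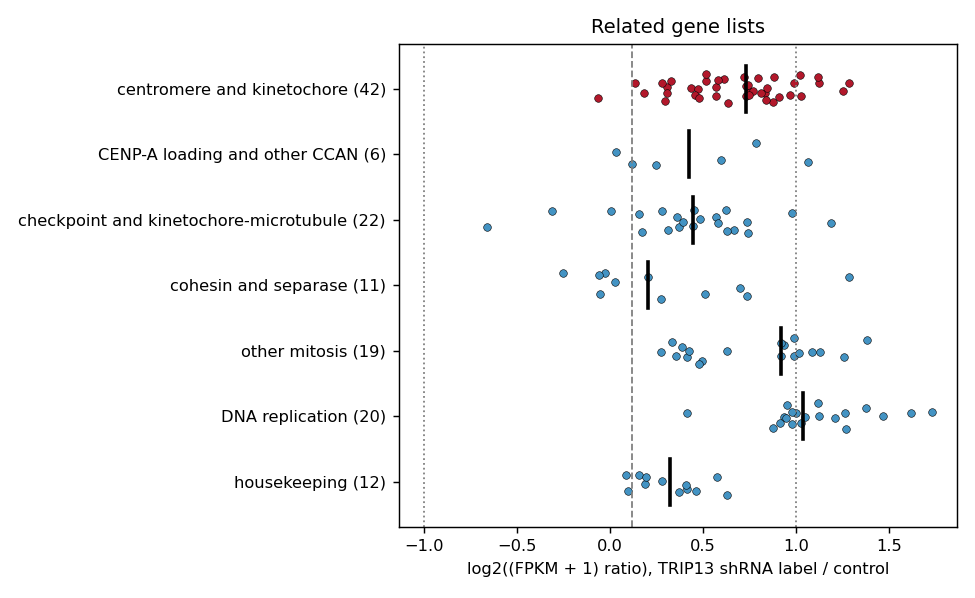
Log2 ratio of each gene in the kinetochore set (red) and in 6 other lists (blue), with list medians as black bars, the median of all tested genes as a dashed line and the 2-fold rule as dotted lines; vertical scatter within a list has no meaning. The median is 0.73 for the set, 0.20 for cohesin and separase, and 1.04 for DNA replication.

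Several kinetochore genes start close to another gene on the opposite strand, in head-to-head pairs. Whether both genes of a pair share 1 promoter region was not tested. In GENCODE release 29, 14 of the 42 genes had a protein-coding gene whose start lay within 1000 bases on the other strand, and in 5 of these pairs the transcribed stretches overlap at their starts. In 14 of 14 pairs the partner had a lower log2 ratio than the kinetochore gene, and in 10 pairs the counting intervals did not overlap. The median was 0.38 for partners, 0.76 for the genes of the set in these pairs and 0.12 for all tested genes. Of all tested genes, 7.1% lay above the 0.73 of the whole set, so most genes taken as partners would be lower. Other head-to-head pairs were not counted. Of the partners, 11 were above 0 and 0 were at least 2-fold higher or lower.

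NDC80 and METTL4, a methyltransferase, start 2 bases apart. METTL4 had 4.66 against 4.19 FPKM and a ratio of 1.11 (0.979 to 1.26), against the 1.87 of NDC80. CENPK and PPWD1, a peptidyl-prolyl isomerase, start 65 bases apart, and PPWD1 had 12.6 against 11.3 FPKM, a ratio of 1.12 (1.02 to 1.23), against the 1.83 of CENPK. CENPQ and MUT, the mitochondrial methylmalonyl-CoA mutase, start 187 bases apart, with MUT lower in the library labelled TRIP13 shRNA at 13.3 against 15.4 FPKM, a ratio of 0.860 (0.788 to 0.938). Other pairs lay closer together in log2 ratio. MRPL57, a mitochondrial ribosomal protein gene 43 bases from SKA3, had the highest ratio of the partners, 1.87 (1.63 to 2.15), and a log2 ratio of 0.82 against the 1.02 of SKA3. LRRC45 had a log2 ratio of 0.58 against the 0.75 of CENPX, and NOL8 one of 0.70 against the 0.87 of CENPP. In FPKM ratio NOL8 and CENPP were far apart, at 1.73 (1.59 to 1.89) and 3.02 (2.48 to 3.71), with intervals that did not overlap. Among partners with a role in division, CDC25B, a mitotic phosphatase that starts 82 bases from CENPB, had 23.2 against 15.9 FPKM, a ratio of 1.46 (1.36 to 1.57) whose interval overlapped that of CENPB. PRR11, a cell cycle gene 230 bases from SKA2, had 24.6 against 18.05 FPKM, a ratio of 1.36 (1.27 to 1.46), below the interval of SKA2.

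**Figure D5:**
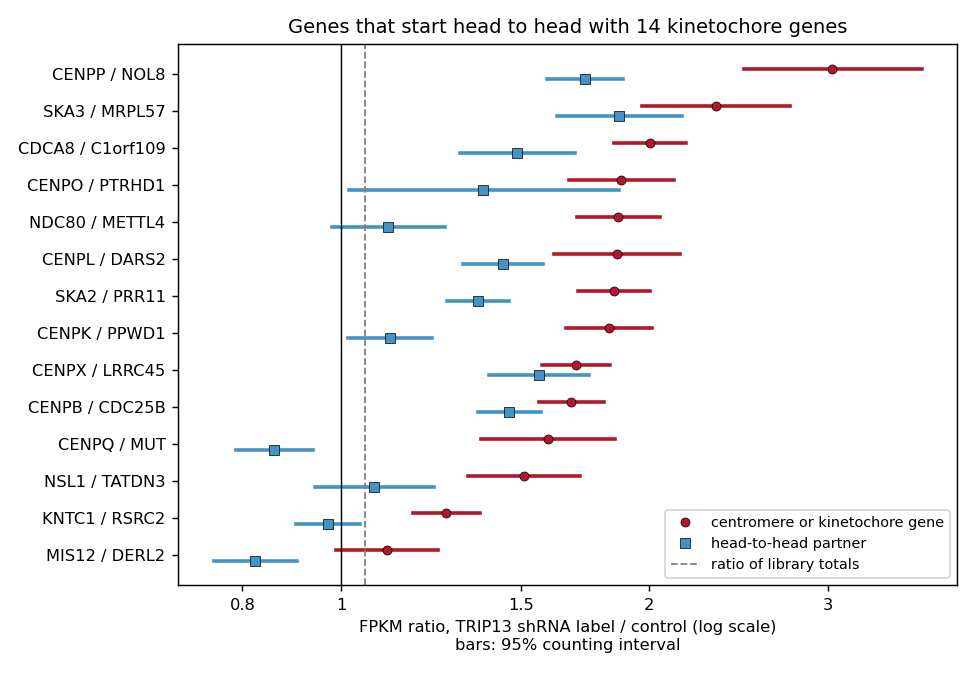
FPKM ratio (log axis) with 95% counting interval for 14 kinetochore genes (red circles) and the genes that start head to head with them (blue squares); the dashed line is the ratio of library totals. Every square lies to the left of its circle, and the bars of 4 pairs overlap (SKA3, CENPO, CENPX and CENPB).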

How the data were processed

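Total RNA of 2 U87MG libraries was sequenced after NEBNext Ultra preparation, per the labels' protocols. The authors deposited FPKM values per gene. Per the submitters' processing notes, hg38, HISAT2 2.0.5, featureCounts 1.5.0-p3 and edgeR were used, with no role stated; for annotation and strandedness, settings were not given in the sources used here. All 58735 genes had the identifiers and positions of GENCODE release 29, which gave exon overlaps. FPKM multiplied by gene length gave whole reads for 100% of values within 0.001 read, at 1 step common to both libraries, so deposited FPKM ratios equal read ratios, uncorrected for depth. Of 19951 protein-coding genes, the 10671 that averaged at least 1 FPKM were compared as log2 ratios with a pseudocount of 1. Counting intervals are exact (Clopper-Pearson, 95%) for the split of reads between libraries and reflect counting error alone, with 1 library a group. Reads lacking molecular identifiers cannot be taken as separate molecules, so the intervals may be too narrow even for counting error.

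The genes and lists were chosen with earlier results of these data known, and the head-to-head pairs, the length split and the exclusion of shared exons were added after the values were seen. Genes named are TRIP13, the 42 genes, up to 2 genes at each end of each list by log2 ratio, and marker genes; MKI67, HJURP and the head-to-head partners were named after their values were seen. Values of some genes that this rule would name are not reported here. Alternative settings were own totals, TPM, a median ratio of 1, pseudocounts of 5 and 0.1, a mean FPKM of 5, no filter and every biotype. Read recovery, intervals and the size rule were tested on simulated data. Scripts ran in Python 3.11.15 with scipy 1.17.1, pandas 2.3.3, matplotlib 3.10.9 and numpy 2.4.6.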

Additional observations from a re-analysis of the deposited data

How the results depend on the processing

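No paired analysis was possible because there was 1 library a group. The number of genes at least 2-fold higher, 6, became 10 with a pseudocount of 0.1, 1 with a pseudocount of 5 and 2 with the median ratio set to 1. The number was 4 with own totals, 5 without genes sharing over 10% of their exon length (34 left) and 6 under the other alternatives. Rescaling to TPM kept the number at 6 with CENPP in place of CENPU. The median log2 ratio of 0.73 became 0.49 with a pseudocount of 5, where the median of all genes was 0.07, and lay between 0.60 and 0.78 under the other alternatives. None of the alternatives gave a gene at least 2-fold lower. Setting the median ratio to 1 moved the median log2 ratio of all genes by -0.12. Of all tested genes past the 2-fold rule, 34.2% were higher, against 25.8% with own totals, 22.5% with TPM and 20.2% with the median ratio set to 1. The number of genes with a counting interval above 1, 40 of 42, was 39 with TPM and with the median ratio set to 1. CENPC was below 0 under each alternative that kept it. Of the log2 ratios of single genes under the alternatives, 287 moved by no more than the counting interval of the gene and 43 by more. No filter, a mean FPKM of 5 and every biotype cannot change the ratio of a single gene. Their values are all among the 287, and the 43 came from the other settings. With 1 library a group, the spread between cultures is unknown. Depth limits the call for MIS12. The call for CENPC also depends on the scaling, since its interval lay below 1 with the median ratio set to 1.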
